A study of Mus musculus with 113 samples.

Results

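Single mouse embryos at the late 2-cell (2C) stage, in which a base editor was aimed at Nr5a2, were examined by RNA-seq. The members were taken from the sample titles: 14 embryos that had received base editor (BE) mRNA together with an Nr5a2 single guide RNA (sgRNA), set against 8 embryos given BE mRNA alone and 8 given sgRNA alone. These 30 embryos were taken from the 113 samples of the series, of which 92 have a file of FPKM, which are fragments of a transcript scaled by its length and by library size. The wider study asked what nuclear receptor transcription factors do between zygotic genome activation (ZGA) and the first lineage decision, with siRNA knockdown (KD), base editing and chromatin profiling. The embryos of all 3 groups came from C57BL/6N females and PWK/PhJ males, and each injected RNA was given at 100 ng/µl, so the controls carry the injection and 1 of the 2 components. A base editor is a Cas9 nickase joined to a deaminase, which turns C into T near the guide's target without cutting both strands. The methods name the editor hA3A-eBE-Y130F, whereas the column names of the files hold either eBE or BE4. Where nothing says that embryos came from separate litters or injection days, the p-values measure the spread between these embryos.

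Nr5a2 encodes an orphan nuclear receptor that binds DNA as a monomer. The receptor has been proposed to bind phospholipids, although the study states that the mouse protein appears to have lost ligand binding. Nr5a2 is known for its part in bile acid synthesis in the liver and in steroid production in the gonad. In the embryo it is expressed from genome activation onwards. In the mouse, a minor wave of ZGA in the zygote is followed by the major wave at the late 2C stage, when a large part of the embryonic genome is switched on and maternal transcripts are cleared.

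The guide is shown first because its position sets what the edit can do. Its 20 bases match mm9 once, at chr1:138845326-138845345 on the minus strand. The match lies inside exon 3 (chr1:138845299-138845436, GENCODE vM1) of Nr5a2, whose whole gene spans chr1:138740161-138857004. The first line gives the reference with the arginine codon in capitals, the second the same site with the stop codon that a C-to-T change makes, and the third the reference with its PAM in capitals, all from 5′ to 3′ on the coding strand.
reference, codon in capitals: ggtcCGAtcgcatggggaacagg
edited, stop in capitals: ggtcTGAtcgcatggggaacagg
reference, PAM in capitals: ggtccgatcgcatggggaacAGG

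Positions are counted from 1 at the guide's 5′ end, and the editing window is taken as positions 4 to 8. That window holds 2 cytosines. The change C5T, at position 138845341 of chromosome 1, turns CGA into TGA, a stop at codon 75 of the longer of the 2 coding transcripts. It leaves 74 of 560 residues (13.2%), and in the shorter one it leaves 13 of 499 residues (2.61%). The other change in the window, C4T, keeps the amino acid, since GTC and GTT both stand for valine. Outside the window, C9T and C11T would alter an amino acid and C20T would make another stop. A search of mm9 for sites next to NGG with at most 3 mismatches found the target itself and 1 further site with 2 mismatches, at chr3:144442143-144442162 on the plus strand, which lies outside annotated genes. The share of edited reads in each embryo was not analysed here, so it is not known from these files how many of the 14 embryos carried the stop, or on how many alleles. The study itself reports that most Nr5a2 reads were mutated in the edited 2C embryos it examined, and that NR5A2 protein was depleted.

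The libraries of the 3 groups overlapped in size and content. The sum of FPKM ran from 166260 to 334342 in the edited embryos (median 283578) and from 150877 to 375454 in the controls (median 264029; two-sided permutation test, p = 0.315). Between 7620 and 11921 genes had an FPKM of at least 1, and the means of edited and control embryos did not separate (p = 0.385). The lowest of these counts belongs to sgRNA replicate 8, whose column name says 4-cell where its title says 2C. Without it the means were 10222 in edited and 10688 in control embryos (permutation test, p = 0.0517). Since FPKM hold no read counts, sequencing depth is not known. Its relative size, read from the steps between low values, lay between 0.763 and 1.30 (p = 0.568 between edited and control embryos). The editor name in the column gave 2 sets of libraries: 6 edited, 4 BE and 7 sgRNA embryos stand with eBE, and 8 edited and 4 BE embryos stand with BE4, which has no sgRNA embryo. Guide-only columns name no editor and were placed by their library numbers. Within BE4 libraries the edited embryos had fewer genes with an FPKM of at least 1, 9858 against 10784 on average (exact permutation test, p = 0.0202), while within eBE libraries the means were 10708 and 10653 (exact permutation test, p = 0.861). Between eBE and BE4 libraries no gene of 12420 passed an adjusted p of 0.05 in limma, while 2047 had an unadjusted p under 0.05, of which 1908 were lower in BE4.

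The level of Nr5a2 did not separate edited from control embryos. In the 14 edited embryos it ran from 2.28 to 46.3 FPKM with a median of 30.3. In the 8 BE embryos it ran from 2.65 to 70.8 FPKM (median 21.4), and in the 8 sgRNA embryos from 4.12 to 70.6 FPKM (median 9.74). The groups overlap almost entirely, and the highest sgRNA value is that of replicate 8. The difference between edited and control embryos was 0.41 on the log2(FPKM + 1) scale (SE 0.43, 95% interval -0.47 to 1.29; two-sided permutation test, p = 0.378, n = 14 and 16). Without sgRNA replicate 8 it was 0.55 (p = 0.231). Within the eBE libraries it was 0.80 (exact permutation test, p = 0.163), and within the BE4 libraries 0.62 (exact permutation test, p = 0.493). Whether a transcript with the edited codon is kept was not tested, so this level does not check the labels. For comparison, the 2 KD pools of the same stage had 2.72 and 6.13 FPKM of Nr5a2 and their 2 NC (negative control siRNA) pools 19.4 and 24.3 FPKM.

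**Figure D1:**
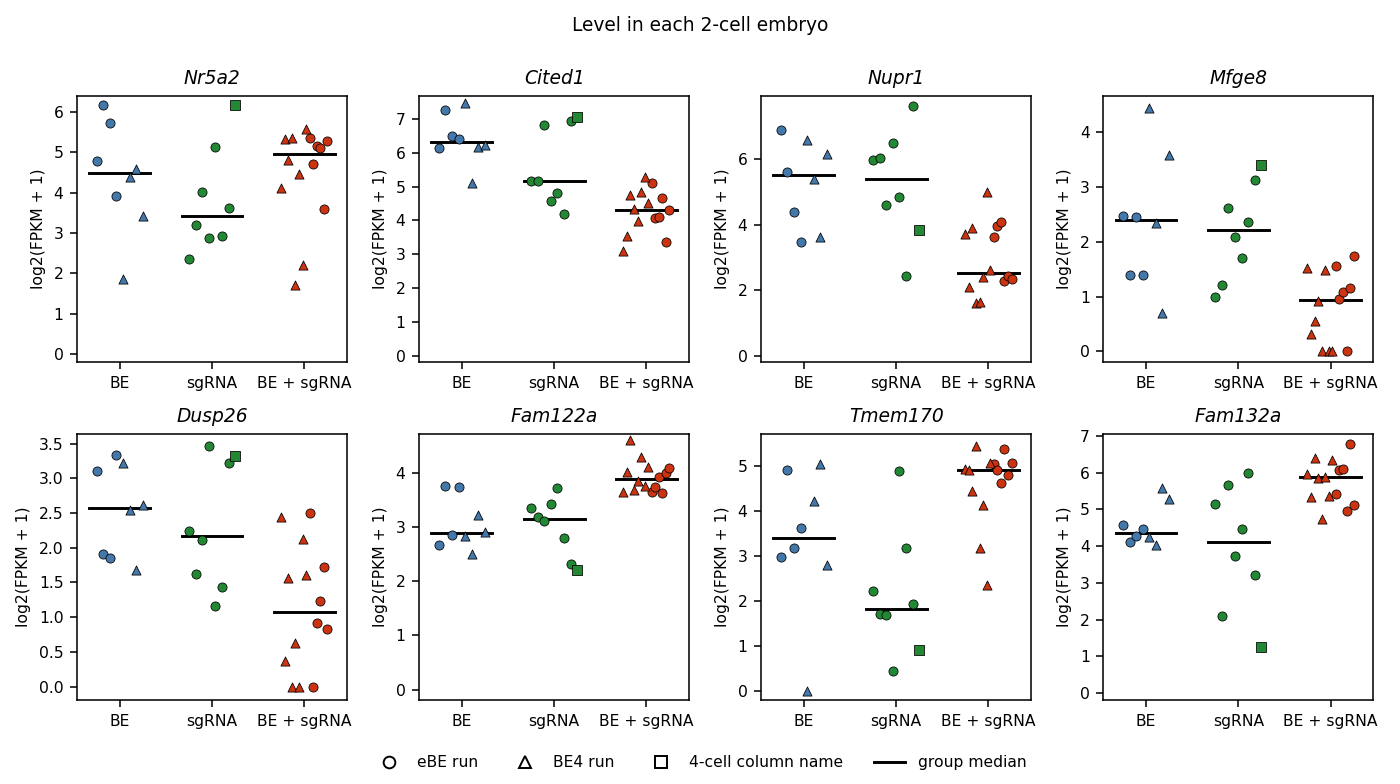
Levels of 8 genes in every 2C embryo, as log2(FPKM + 1), with embryos grouped by injection along the x axis, the marker shape giving the editor name of the library and a line at each group's median. Nr5a2 overlaps across the groups, the 14 edited embryos lie below the control median for Cited1, Nupr1 and Mfge8, and they lie above it for Fam122a and Fam132a. Apart from Nr5a2, the genes were ranked in these same embryos, so their separation follows in part from the ranking.

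Cited1 was the single gene that changed between edited and control embryos. It encodes a transcriptional co-activator that binds CBP/p300 and is one of the study's major ZGA genes. The edited embryos had 7.61 to 37.6 FPKM (median 18.96) and the controls 17.3 to 175 FPKM (median 72.5). All 14 edited embryos were below the control median, and 10 of the 16 controls were above the highest edited embryo. Such counts, here and for the genes below, come from the embryos that ranked the genes, so they follow in part from the ranking. The share of all genes with such counts was not determined. On the log2 scale Cited1 fell by 1.72 (SE 0.31; limma, adjusted p = 0.037 over 12420 genes). It was 1 gene of the 12420 tested, or 0.00805%. At stricter limits (an adjusted p under 0.01 and a log2 change of at least 2) the share was 0%. At an unadjusted p under 0.05, 780 genes (6.28%) were higher and 664 (5.35%) lower in edited embryos, 1444 in all. That split depends on the scaling: with libraries scaled by median ratios, which moved the median of all genes from 0.07 to -0.07, 473 were higher and 1010 lower, and with libraries scaled to the same FPKM sum 540 and 950. The filter bears on the split as well. Of the 12420 genes, 1452 (11.7%) reached a mean of 1 FPKM only in a control group, beside 161 only in the edited group. For the 1452 a lower level in edited embryos was favoured by the filter.

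The fall of Cited1 had the same direction in each subset of embryos, but its call depended on single embryos. These subsets are parts of the 30 embryos in which Cited1 was called, so the shared direction follows in part from that call. Leaving out each embryo in turn gave log2 differences between -1.82 and -1.61 and adjusted p between 0.0063 and 0.109 in limma, under 0.05 in 14 of 30 cases. Against BE embryos alone the difference was -2.12 (adjusted p = 0.0257) and against sgRNA embryos alone -1.31 (adjusted p = 0.133). Within the eBE libraries it was -1.71 (adjusted p = 0.288) and within the BE4 libraries -1.95 (adjusted p = 0.419). With the editor name as a term in the limma fit it was -1.57 (adjusted p = 0.077), and without sgRNA replicate 8 it was -1.61 (adjusted p = 0.030). The spread over embryos sets the limit of what could be seen: the median SE of a gene's log2 difference was 0.30, and the median 95% interval reached 0.61 to each side. That interval is not adjusted for the number of genes, so larger differences could also fail the adjusted threshold.

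The other genes that ranked lowest by unadjusted p did not pass the adjusted threshold, and their values are given as measured. Nupr1, a small nuclear protein induced by stress and also a major ZGA gene of the study, had 2.06 to 31.0 FPKM in edited embryos (median 4.74) and 4.38 to 195 FPKM in controls (median 44.7). All 14 edited embryos were below the control median, and its log2 difference was -2.26 (SE 0.44; limma, adjusted p = 0.070). Mfge8, a secreted protein that links dying cells to phagocytes, had 0 to 2.35 FPKM in edited embryos (median 0.913) and 0.623 to 20.8 FPKM in controls (median 4.10; log2 difference -1.46, adjusted p = 0.090). Mfge8 also had 10 of 16 controls above the highest edited embryo. Its mean was 0.921 FPKM in edited embryos and 5.19 FPKM in controls. It thus passed the filter of 1 FPKM only through a control group, which favours a lower level in edited embryos.

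Dusp26, a dual-specificity phosphatase, had a median of 1.11 FPKM in edited embryos and 4.26 FPKM in controls (log2 difference -1.29), and was listed at 0 in 3 edited embryos. Tsc22d3, a glucocorticoid-induced leucine zipper protein, had medians of 1.07 and 10.2 FPKM (log2 difference -2.05). Esx1, an X-linked homeobox gene of the placenta, had medians of 2.15 and 36.9 FPKM, with a range of 0 to 68.1 FPKM in edited embryos and 0.277 to 140 FPKM in controls (log2 difference -2.60, limma adjusted p = 0.153). Esx1 is among the genes with the widest spread within the edited group. The remaining lower genes were Srsf3, a splicing factor of the SR family (-1.18), Ppp5c, a serine/threonine phosphatase (-1.31), Rtca, an RNA 3′-terminal phosphate cyclase (-1.43), and Tceal8 (-1.63). For Srsf3 and Ppp5c all 14 edited embryos lay below the control median. Ppp5c had a mean of 0.893 FPKM in edited embryos, so it too passed the filter only through a control group.

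Among the genes that ranked highest in the other direction, none of the 10 passed the adjusted threshold in limma. Fam122a, an inhibitor of the phosphatase PP2A, had 11.4 to 23.3 FPKM in edited embryos (median 13.8) and 3.62 to 12.6 FPKM in controls (median 7.06). Its lowest edited embryo was above 13 of the 16 controls, and its log2 difference of 0.89 (SE 0.20, adjusted p = 0.104) had the smallest SE of the 10. Tmem170 had 4.10 to 42.5 FPKM in edited embryos (median 29.2) and 0 to 32.0 FPKM in controls (median 6.50; log2 difference 1.86). Against BE embryos alone the difference of Tmem170 was 1.25, and against sgRNA embryos alone 2.46.

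Zar1, a maternal RNA-binding protein needed at the oocyte-to-embryo transition, had 16.7 to 132 FPKM in edited embryos (median 38.3) and 1.65 to 55.2 FPKM in controls (median 11.9; log2 difference 1.61, limma adjusted p = 0.153). Fam132a, which encodes the secreted protein adipolin, had medians of 57.6 and 19.6 FPKM (log2 difference 1.48). Lsm14b, a component of oocyte RNA granules, had medians of 25.1 and 9.84 FPKM (1.25), and Pagr1a, a partner of the MLL3 and MLL4 complexes, had medians of 25.3 and 10.3 FPKM (0.94). For Fam122a, Fam132a and Lsm14b all 14 edited embryos were above the control median, while for each of the 10 the ranges of the groups overlapped. These genes were ranked in the same embryos, so such counts follow in part from the ranking. Differences of 1.13 to 1.40 were measured for 2210011C24Rik, 1700096K18Rik, Cd164l2 and BC037704.

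The leading genes kept their direction in both sets of libraries, although their sizes varied. The sets are parts of the embryos in which these genes were ranked, so the shared direction follows in part from the ranking. Nupr1 was measured at -2.14 within eBE and -2.56 within BE4 libraries, Esx1 at -2.17 and -3.36, and Mfge8 at -0.89 and -2.17. Among the genes that were higher, Fam122a was at 0.64 and 1.12, Tmem170 at 1.98 and 1.29, and Zar1 at 1.79 and 1.12. Neither set held a gene past an adjusted p of 0.05 in limma. At an unadjusted p under 0.05, 829 genes were higher and 302 lower in edited embryos within eBE libraries, and 150 were higher and 703 lower within BE4 libraries, so the balance of directions differed between the sets, a difference that was not tested.

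**Figure D2:**
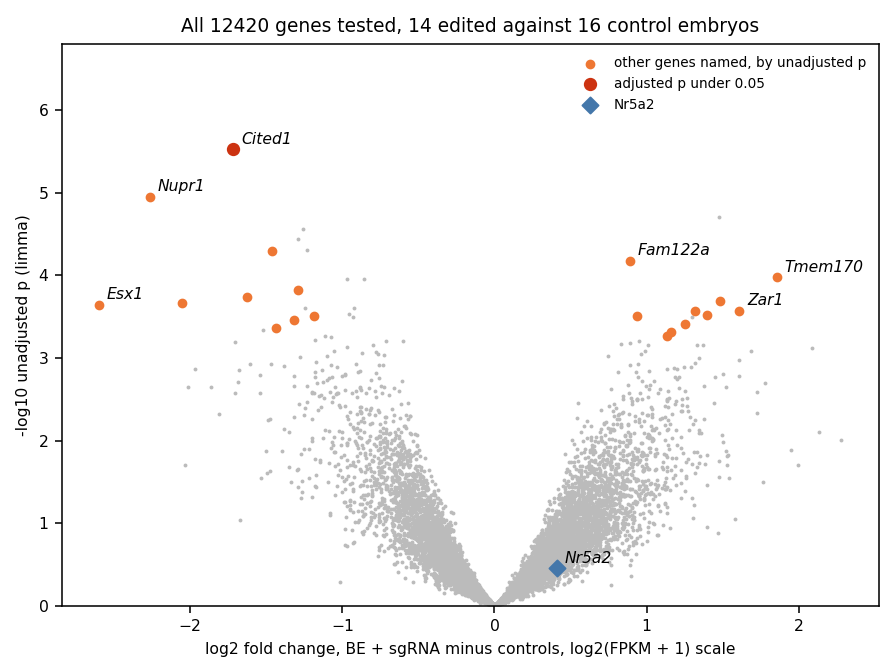
Each of the 12420 genes tested by its log2 difference between edited and control embryos on the x axis and its unadjusted p from limma, as −log10, on the y axis. Cited1 stands at -1.72 as the single gene past an adjusted p of 0.05, and the other named genes spread over both sides with Nr5a2 near the centre at 0.41.

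Removing sgRNA replicate 8 raised the count of genes at an adjusted p under 0.05 from 1 to 7. The 7 were Cited1, Nupr1, Esx1, Cct8l1, Gabre, Smpd2 and Vash2; the last 4 had no group mean of 5 FPKM, so they fall outside the rule for named genes and are given after their values were seen. Gabre, a GABA-A receptor subunit, had at most 0.989 FPKM in edited embryos and at least 0.373 FPKM in controls, with all 14 edited embryos below the control median. Vash2, a vasohibin with tubulin carboxypeptidase activity, had medians of 0.0988 and 1.67 FPKM, and Smpd2, a neutral sphingomyelinase, 0.511 and 2.70 FPKM. The means of Gabre, Vash2 and Smpd2 in edited embryos were 0.323, 0.370 and 0.710 FPKM. These genes thus passed the filter of 1 FPKM only through a control group, which favours a lower level in edited embryos. Cct8l1, a relative of a chaperonin subunit, was the one of the 7 that was higher in edited embryos, with medians of 4.04 and 0.215 FPKM. Without that library Nupr1 differed by -2.36 (limma, adjusted p = 0.031) and Esx1 by -2.90 (adjusted p = 0.042). Over all 30 single omissions the count lay between 0 and 7, and it was 0 for 16 of the 30 embryos.

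The genes named by the study for their part in lineage formation showed no difference that passed the threshold. Of the nuclear receptors targeted elsewhere in the series, Rarg, the retinoic acid receptor gamma, had medians of 17.3 FPKM in edited embryos and 11.5 in controls (log2 difference 0.34, SE 0.39). Nr1h3, the oxysterol receptor LXR alpha, had medians of 2.34 and 1.11 FPKM (0.49, SE 0.47), and the testicular receptor Nr2c2 17.2 and 14.4 FPKM (0.42, SE 0.36). Pou5f1, which encodes the pluripotency factor OCT4, had medians of 35.3 and 41.5 FPKM (-0.37, SE 0.32). The unadjusted p was lowest for Tdgf1, a Nodal co-receptor, with medians of 0 and 1.08 FPKM (-0.78, SE 0.23; limma, adjusted p = 0.214).

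Nanog did not pass the filter of a mean FPKM of 1 in any group: its highest value was 1.45 FPKM in edited embryos and 1.74 in controls, and it was above 0 in 7 of 14 and 13 of 16 embryos. The trophectoderm regulators Tead4 (-0.01), Klf5 (0.03), Tfap2c (-0.13) and Gata3 (-0.31) and the primitive endoderm genes Gata6 (-0.46) and Fgfr2 (-0.20) had SE of 0.28 to 0.39, so that their intervals include 0. Id3, an inhibitor of basic helix-loop-helix factors, was measured at -0.26 (SE 0.55), Satb1, a chromatin organizer, at -0.07, Rangap1, the GTPase activator of Ran, at -0.11, and the FGF receptor gene Fgfr1 at -0.11. Several of these signs turned under other settings.

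Of the genes that the study assigned to major ZGA, 1102 of 1105 passed the filter. Of these, 119 were higher and 36 lower at an unadjusted p under 0.05, or 10.8% and 3.27% beside 6.28% and 5.35% of all genes, and Cited1 was the one member past the adjusted threshold. Their median log2 difference was 0.26, beside 0.07 over all genes. The late 2C genes gave nearly the same values, with 65 higher and 15 lower of 554 and a median of 0.23. Without edited replicate 7 the medians of the major ZGA and late 2C genes were 0.40 and 0.38. In each embryo the median deviation of the major ZGA genes from their mean over the 30 embryos ran from -1.68 to 0.71 in edited embryos and from -0.92 to 1.21 in controls, so the groups overlap. Against BE embryos alone the median of these genes was 0.01 (all genes -0.06) and against sgRNA embryos alone 0.49 (all genes 0.19). Within eBE libraries it was 0.30 (all genes 0.13) and within BE4 libraries 0.23 (all genes -0.08). Scaling libraries to the same FPKM sum moved it to 0.15, with all genes at -0.05.

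The medians of the minor ZGA and early 2C genes were above 0 within eBE and below 0 within BE4 libraries, and their size in BE4 depended on where guide-only libraries were placed. Over the 30 embryos, 42 of 61 minor ZGA genes tested were higher and the median was 0.35. Of the early 2C genes 32 of 41 were higher, with a median of 0.46. Leaving out BE replicate 5 gave medians of 0.18 and 0.28, and leaving out edited replicate 7 gave 0.57 and 0.78. Within eBE libraries the medians were 0.98 and 1.14 (all genes 0.13), and within BE4 libraries -1.05 and -0.95 (all genes -0.08). With 3 sgRNA libraries placed with BE4 instead of eBE, they were 0.78 and 0.92 within eBE and -0.18 and -0.087 within BE4. Against BE embryos alone they were -0.31 and -0.27 (all genes -0.06), and against sgRNA embryos alone 0.97 and 1.18 (all genes 0.19). A list of 39 transient 2C genes, drawn from the Zscan4, Tcstv, Tdpoz and similar families, had a median of 0.46 over all embryos, 0.24 without sgRNA replicate 8 and 0.29 without BE replicate 5. It was at 1.17 within eBE and -1.01 within BE4 libraries, or 0.87 and -0.16 with the 3 sgRNA libraries placed with BE4. AF067063, its member with the highest control level, had medians of 670 and 388 FPKM (log2 difference 1.08), and Gm5662 had 116 and 102 FPKM (0.49). Members of these families share near-identical copies, so the FPKM of single genes is uncertain. In single embryos the early 2C genes spanned -3.02 to 1.60 in the edited group and -2.94 to 1.48 in the controls.

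**Figure D3:**
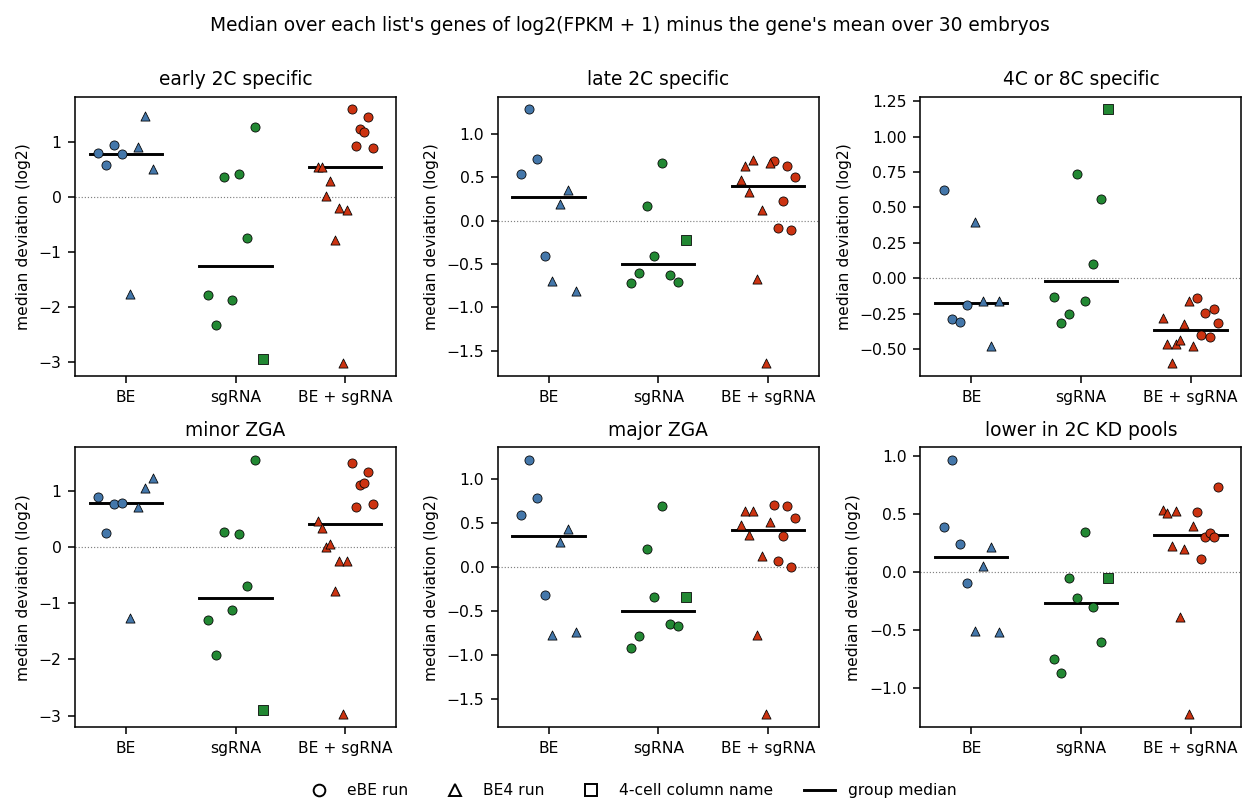
Median deviation of 6 gene lists of the study in each embryo, in log2(FPKM + 1) from the mean over the 30 embryos, by injection group. The groups overlap in all 6 lists, and the early 2C list has single embryos near -3 in the edited group and among the controls.

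Transcripts stored in the oocyte were higher in edited embryos on the median, but 1 library carried much of that. Of 38 maternal genes 32 were higher and 6 lower, and 7 and 1 had an unadjusted p under 0.05, or 18.4% and 2.63% beside 6.28% and 5.35% of all genes. Their median was 0.36, and 0.12 without sgRNA replicate 8, whose maternal transcripts sum to 1825 FPKM beside 3197 to 21917 FPKM in the other controls. Dppa3, which protects maternal methylation, had medians of 1648 FPKM in edited embryos and 891 in controls (log2 difference 0.98, limma adjusted p = 0.362). Omt2b had medians of 6125 and 5393 FPKM (0.43). Within eBE libraries the median of the maternal genes was 0.44 (all genes 0.13), and within BE4 libraries -0.07 (all genes -0.08). The Obox genes, homeobox factors of the oocyte and early embryo, had a median of 0.27 over 5 genes tested, and 0.04 without that library. Leaving out other single embryos gave 0.087 (sgRNA replicate 2) to 0.41 (sgRNA replicate 4). Obox6 had medians of 367 and 190 FPKM and Obox3 113 and 61.4 FPKM.

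Genes that normally appear after the 2C stage mostly stayed under the filter. Of the 61 genes that the study calls 4C or 8C specific, 30 passed the filter, and of those 25 passed only through a control group, so that a lower level in edited embryos followed from the filter. Among the 5 with a mean of at least 1 FPKM in edited embryos, 4 were lower and 1 higher. With every gene above 0 in any library included, the median of the list was -0.28, where all genes had -0.01. Aqp3, a water and glycerol channel, had medians of 1.40 FPKM in edited embryos and 7.17 in controls (log2 difference -1.10, limma adjusted p = 0.397), Gcnt1, a glycosyltransferase, differed by -0.46, and Xist, the RNA of X inactivation, 0 and 0.209 FPKM (-0.78). The level of Xist came mainly from sgRNA replicate 8, at 46.2 FPKM beside at most 3.37 FPKM in the other controls, and without that library it did not pass the filter. These 3 have the highest control means of the list and were chosen after their values were seen. The inner cell mass (ICM) list was alike: 43 of 131 genes passed, 25 of them only through a control group, and 15 of the other 18 were lower.

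Genes listed as altered in KD pools of this stage were compared, since KD lowers the same receptor by another route. These lists were drawn up on the pools and not on the edited embryos, and the copies used, of 93 and 111 genes, may hold only part of the study's lists. Of 93 genes lower in KD pools, which include Nr5a2 itself, 70 were higher and 23 lower in edited embryos (median 0.27), and 16 and 2 had an unadjusted p under 0.05, or 17.2% and 2.15% beside 6.28% and 5.35% of all genes. Of 109 genes higher in KD pools that passed the filter, 37 were higher and 72 lower in edited embryos (median -0.23), and 3 and 24 had an unadjusted p under 0.05, or 2.75% and 22.02%. Both medians thus have the opposite sign to the KD pools. The median of 0.27 stands beside 0.26 for major ZGA and 0.23 for late 2C genes. It is thus not particular to the genes lower in KD pools. Whether it is apart from the shift of those lists was not tested. Both KD list medians kept their sign without sgRNA replicate 8 (0.27 and -0.33, all genes 0.02). They also kept it within eBE libraries (0.30 and -0.14, all genes 0.13) and within BE4 libraries (0.28 and -0.73, all genes -0.08).

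Single members varied. Crabp1, a retinoic acid binding protein, was measured 2.30 higher on the log2 scale in KD pools, and in edited embryos it had a median of 6.99 FPKM against 21.9 in controls (log2 difference -2.02, limma adjusted p = 0.216). Esx1 was 2.56 higher in KD pools and -2.60 in edited embryos. Hist1h2bj and Gpr50, 2.58 and 2.61 higher in KD pools, were near 0 in edited embryos, at -0.09 and -0.15, with signs that turned under other settings. The ribosomal protein genes Rps26 and Rpl13a, with -0.94 and -1.15 in KD pools, were at 0.22 and 0.42, and Gm3139, with -1.04, was at 1.01. Cited1 was 0.81 higher in KD pools, and none of these KD differences passed an adjusted p of 0.05 with 2 pools a group.

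**Figure D4:**
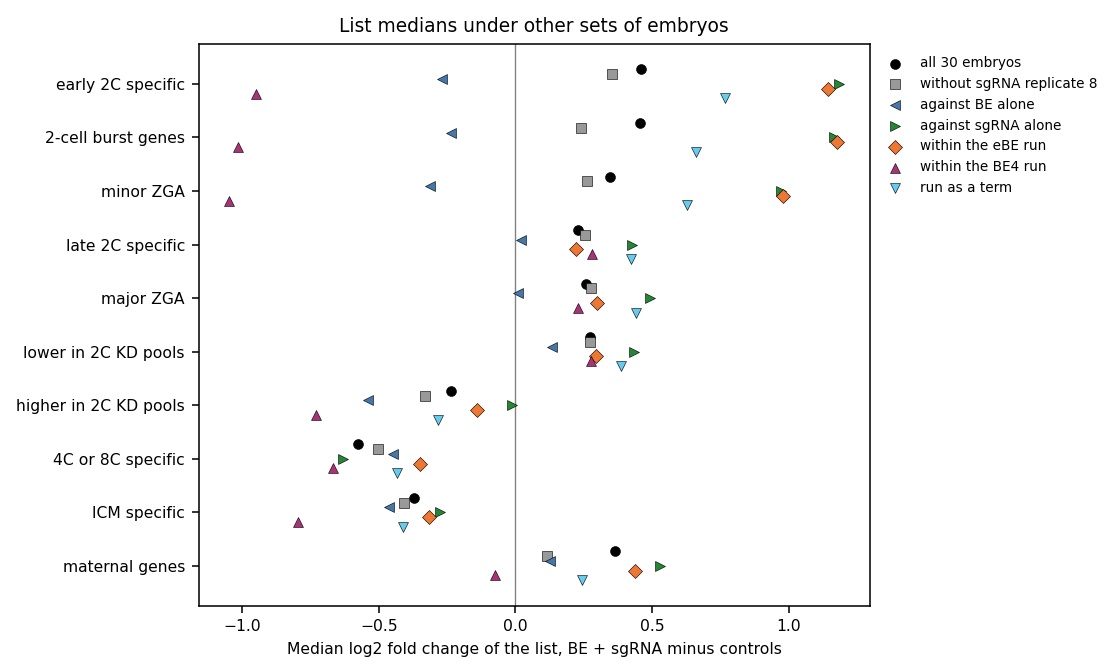
Median log2 difference between edited and control embryos for 10 gene lists, on the x axis, under 7 choices of embryos or controls, each with its own marker. The early 2C and minor ZGA lists lie near 1 within eBE libraries and near -1 within BE4 libraries with all guide-only libraries placed with eBE (-0.087 and -0.18 within BE4 with 3 of them placed there), while the late 2C, major ZGA and KD lists keep their side of 0.

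Of the lists that could show a response to the injection or to the edit itself, those of base excision repair and nonsense-mediated decay had medians near that of all genes (0.07), and those of the p53 response and of RNA sensing and interferon were lower. The base excision repair genes, which act on deaminated cytosines, had a median of 0.17 over 25 genes, with 1 higher and 1 lower at an unadjusted p under 0.05. Apex1, the apurinic endonuclease, had medians of 38.1 and 27.1 FPKM (0.10), and the replication clamp Pcna 31.6 and 21.8 FPKM (0.29). The p53 response genes had a median of -0.14 over 20 genes, 7 higher and 13 lower, with Mdm2, the ubiquitin ligase of p53, at 53.2 and 37.4 FPKM (0.63) and Gadd45b at 55.6 and 72.4 FPKM (-0.15). The genes of RNA sensing and interferon had a median of -0.30 over 20 genes, 5 higher and 15 lower, with 2 higher and 3 lower at an unadjusted p under 0.05. Of these 20, 4 passed the filter only through a control group, and the median of the other 16 was -0.11. Leaving out BE replicate 1, BE replicate 5 or sgRNA replicate 7 moved the median of the 20 to -0.13, -0.18 and -0.074. Ifitm3, an antiviral membrane protein, was at 0.68 and the regulator Irf1 at -0.17. The factors of nonsense-mediated decay, which removes transcripts with early stops, had a median of 0.06 over 20 genes and 0 members at an unadjusted p under 0.05. Magoh and Eif4a3, of the exon junction complex, were at 0.62 and 0.33.

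Most lists of regulators had medians close to that of all genes, and the trophectoderm and primitive endoderm lists were lower. The nuclear receptor family had a median of 0.11 over 26 of 44 genes, with Nr6a1, the germ cell nuclear factor, at 0.38. Co-factors of NR5A2 had a median of 0.10 over 11 genes. Of these, Med1, a Mediator subunit that nuclear receptors bind, had medians of 46.6 and 30.5 FPKM (0.56, limma adjusted p = 0.393). The pluripotency genes had a median of 0.03 over 19 genes, with Klf17 at 177 and 92.6 FPKM (0.84) and Dppa5a at 331 and 337 FPKM (-0.01). The chromatin regulators of totipotency had a median of 0.09 over 28 genes, and the Polycomb subunits Suz12 and Ezh2 stood at -0.0014 and -0.19. The genes of compaction and polarity had 0.03 over 17, with the small GTPase Rhoa at 103 and 62.2 FPKM (0.70) and Pard3 at 0.16. The trophectoderm list had -0.25 over 12 genes, 2 higher and 10 lower, with Yap1 at 0.15. Of these 12, 3 were lower at an unadjusted p under 0.05 (25% beside 5.35% of all genes), and 2 of the 12 passed the filter only through a control group. The primitive endoderm list had -0.16 over 6 genes, 1 higher and 5 lower, 2 of them passing only through a control group, with Gata4 at 20.3 and 9.44 FPKM (0.74). Of these lists and those of the preceding groups, Cited1 was the one member past the adjusted threshold.

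Markers of other cells that an embryo could carry were mostly near 0, apart from 2 or 3 genes a list with a median of at least 1 FPKM over the 30 embryos. Of 15 granulosa and cumulus markers, 4 stayed below 1 FPKM in every embryo, and 2 reached that median. The steroidogenic genes Star and Cyp11a1 had at most 1.30 and 0.829 FPKM in edited embryos and at most 18.7 and 27.2 FPKM in controls. The sum of this list was 9.44 to 75.8 FPKM in edited embryos and 7.18 to 53.8 FPKM in controls, and most of it was Amhr2, with medians of 25.9 and 17.4 FPKM (log2 difference 1.01). The cumulus gene Tnfaip6 was at -0.36. The sum of 9 sperm markers was 10.4 to 54.9 and 5.96 to 86.6 FPKM, mainly Odf2 (0.35), with Smcp listed at 0 in all embryos and Tnp1 at -0.65. The sum of 7 oviduct markers was 6.00 to 117 and 6.84 to 153 FPKM, nearly all from Epcam (0.15), which embryos also express, while Pax8 was listed at 0, Muc1 was at -1.14 and Ovgp1 had a median of 1.10 FPKM over the 30 embryos. The 5 oviduct markers tested had a median of -0.59, 1 higher and 4 lower. Of these 5, 2 were lower at an unadjusted p under 0.05 (40% beside 5.35% of all genes). The filter was passed only through a control group by 3 of the 5. The sum of 7 blood markers was 1.00 to 127 FPKM in edited embryos (median 51.0) and 8.59 to 313 FPKM in controls (median 80.8). It came from Hba-a1 (-0.90) and, in 3 embryos, from Hba-a2 (-0.46), near-identical copies that share reads, while the leukocyte gene Ptprc and Hbb-b1 were listed at 0. The 4 blood markers tested were lower in edited embryos with a median of -0.64, as were Cited1 and Nupr1, and their part in those differences was not tested.

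Over the 30 embryos the level of Nr5a2 moved with the amount of FPKM from other genes. Against the sum of FPKM, Pearson's r was 0.81 and Spearman's rho 0.772 (permutation test, p = 1e-05 for each, the smallest that 100000 permutations can give, and 3e-05 adjusted over 3 relations). It was 0.895 without sgRNA replicate 8 and 0.774 without the 2 embryos farthest from the median of Nr5a2. Within eBE libraries r was 0.893 and within BE4 libraries 0.932. Against the number of genes with an FPKM of at least 1, r was -0.226 (rho -0.24; permutation test, p = 0.232 and 0.200), and against relative depth 0.182 (rho 0.18; p = 0.334 and 0.338). Nr5a2 is itself 1 of the genes in the sum, and both values of an embryo come from the same library. How many other genes moved as closely with the sum was not determined, so these p-values do not set Nr5a2 apart from other genes.

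With the median of the major ZGA genes, of which Nr5a2 is one, r was 0.841 and rho 0.843 over the 30 embryos, given as a description since the points share libraries. In edited embryos alone r was 0.893, in BE embryos 0.936 and in sgRNA embryos 0.595, or 0.890 without replicate 8. With the late 2C genes r was 0.841, with the genes lower in KD pools 0.801, with the minor ZGA genes 0.380 and with the maternal genes -0.299. The first principal component of the 30 embryos held 25.5% of the variance, and its r with Nr5a2 was -0.901.

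**Figure D5:**
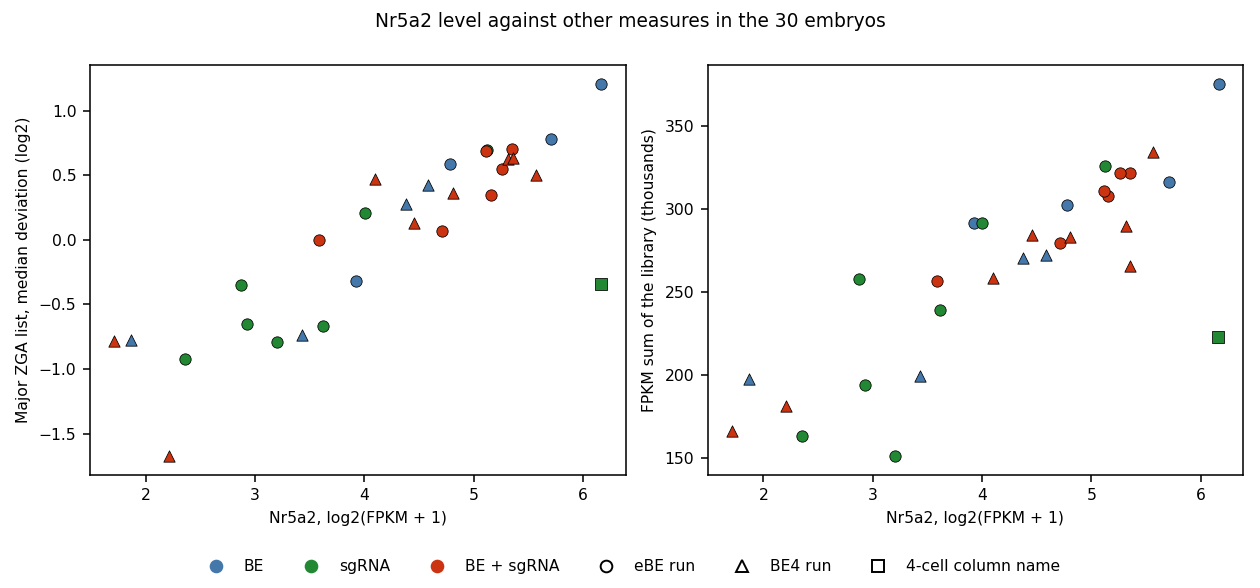
Nr5a2 in each of the 30 embryos, as log2(FPKM + 1) on the x axis, against the median deviation of the major ZGA genes (left, log2) and the sum of FPKM (right). Edited, BE and sgRNA embryos lie along the same band in both panels, with Pearson's r of 0.841 and 0.81.

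The genes with the pattern most like Nr5a2 over the 30 embryos, by Spearman's rho among genes with a mean of at least 5 FPKM, were Sys1 (0.941), Crnkl1 (0.937), Becn2 (0.928), Ppat (0.920) and Rnf7 (0.919). Sys1 is a Golgi trafficking protein, Crnkl1 a spliceosome component, Becn2 an autophagy protein, Ppat the first enzyme of purine synthesis, and Rnf7 a RING subunit of cullin ligases. Their differences between edited and control embryos were 0.64, 0.35, 0.56, 0.73 and 0.42 on the log2 scale, all with intervals that include 0, as for Nr5a2.

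The controls were also set against each other. Between BE and sgRNA embryos no gene passed an adjusted p of 0.05 (0% of 12420; limma, 984 at an unadjusted p under 0.05). Nr5a2 differed by 0.57 (BE minus sgRNA; unadjusted p = 0.341), and Cited1 by 0.82 (unadjusted p = 0.0607). With the editor name as a term in the limma fit, the zinc finger gene Zfp428 was called, with 2.84 higher in BE embryos (adjusted p = 0.032; without the term 2.29, adjusted p = 0.339). The spread between embryos was large in each group: the median correlation between 2 embryos of a group was 0.855 in edited, 0.781 in BE and 0.727 in sgRNA embryos, and the median SD of a gene on the log2 scale was 0.74, 0.80 and 0.92.

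Embryos that had received the same injections and grown to the 8-cell (8C) stage give a point of comparison, with 14, 8 and 8 embryos. The editing difference at 8C minus that at 2C was tested for each gene, and 5 of 12991 genes passed an adjusted p of 0.05 (0.0385%), 3 with a higher and 2 with a lower difference at 8C. Tcp11l2 was at -0.89 at 2C and rose in edited 8C embryos by 1.55 (limma, adjusted p = 0.035 at 8C), a change of 2.43 between stages (adjusted p = 0.022). Gabre and Vash2 went from -1.26 and -1.29 to 0.13 and 0.05, and Cct8l1 from 1.47 to -0.15. At 8C the means of edited and control embryos were 0.138 and 0.0128 FPKM for Gabre and 0.0368 and 0 FPKM for Vash2. For Cct8l1 they were 0.352 and 0.579 FPKM. At such levels a difference can hardly show on the log2(FPKM + 1) scale, so these changes may reflect low expression at 8C, which was not tested. For Cited1 the 8C difference was 0.05, and the change of 1.76 between stages did not pass (adjusted p = 0.070). Nr5a2 had means of 52.1 FPKM in edited and 46.2 FPKM in control 8C embryos, a log2 difference of 0.21, and its change between stages was -0.20 (adjusted p = 0.922). The median difference of the major ZGA genes was 0.11 at 8C and that of the genes lower in KD pools 0.02.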

How the data were processed

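Smart-seq2 libraries of 30 single 2C embryos were used, with 30 single 8C embryos and 4 pools of KD or NC embryos set beside them. The authors mapped the reads to mm9 with TopHat and deposited FPKM per gene made by Cufflinks on the refFlat annotation, with no scaling between libraries. The submitters' processing notes also list CASAVA 1.8, Bowtie2 2.2.2, MACS 1.4.2 and bedtools 2.29.0 for the series. FPKM divides by transcript length and by mapped fragments, so a shift in a few abundant transcripts moves the others.

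Values were compared as log2(FPKM + 1) with limma 3.58.1 in R 4.3.3 (1 fit of the 3 groups, edited minus the mean of both controls, eBayes with a trend, Benjamini-Hochberg adjustment) over the 12420 of 24006 genes whose mean reached 1 FPKM in any of the groups. The pseudocount of 1 understates changes of low genes. The script was tested on simulated data. Single values were compared by permutation (SciPy 1.17.1, two-sided, 100000 resamples, or exact within a set of libraries). Named genes were those the study names, the 10 lowest unadjusted p in each direction with a mean of at least 5 FPKM, up to 2 members of each list with the highest control mean, and genes passing in the stage comparison with a mean of at least 5 FPKM in any group; 2 genes that this rule named are not reported here. The members and lists were chosen with earlier results of these data known. The study's stage, ZGA and KD lists came from its supplementary tables, as names without values. The 20 alternatives covered pseudocount, filter, scaling, weights, replicate block, control group, single omissions and the editor name, and 4 of them, with 3 sgRNA libraries placed with BE4 or with 2 choices joined, were added after seeing the data.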

Additional observations from a re-analysis of the deposited data

Results flagged for a closer look

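In the control groups of 8 embryos, the lowest or the highest embryo was set against the rest by Dixon's ratio, the gap to the nearest embryo over the whole range, with a limit of 0.526 for 8. Of 190 gene, list and group combinations 15 exceeded the critical value for their size (groups of more than 10 embryos were not tested), where chance gives about 1 in 20. On log2(FPKM + 1), the ratio was 0.9827 in BE embryos and 0.9864 in sgRNA embryos for the highest Hba-a2 value, an alpha-globin gene that shares reads with Hba-a1. Among BE embryos it was 0.558 for the lowest Tmem170 value, 0.5436 for the lowest Becn2 value and 0.5467 for the highest Dppa5a value, and the median deviation of the early 2C genes (0.7038) and of the minor ZGA genes (0.6013) each had a lowest BE embryo that stood apart. Among sgRNA embryos it was 0.5536 for Satb1, 0.6112 for Tead4, 0.5676 for Pagr1a and 0.6175 for Xist, each with a single high embryo, and 0.6708 for Nr6a1, 0.7072 for Gadd45b, 0.6232 for Ifitm3 and 0.5401 for Irf1, each with a single low embryo.

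The editing difference was not the same at 2C and 8C for 5 genes in limma (adjusted p under 0.05), among them Gabre (8C minus 2C, 1.39 on the log2 scale), Vash2 (1.34), Tcp11l2 (2.43) and Cct8l1 (-1.63). At 8C, Gabre, Vash2 and Cct8l1 had means under 1 FPKM in edited and in control embryos, where a difference can hardly show on this scale.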

How the results depend on the processing

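The number of genes at an adjusted p under 0.05 between edited and control embryos, 1 as reported (Cited1), was 2 with a pseudocount of 0.1 and with a mean FPKM of at least 5, 0 with every gene above 0 in 1 library included, 148 with array weights (lowest for sgRNA replicate 8, at 0.227), 7 without sgRNA replicate 8 (the 4-cell column name), 0 within eBE and 0 within BE4 libraries, and 6 with the editor name as a term and 3 sgRNA libraries placed with BE4 (0 within either set so placed). It was 1 with the other scalings and without the trend, where it was Cited1, and 1 against sgRNA controls alone and with the editor name as a term, where it was Slc45a4 and Vash2. Leaving out single embryos gave 0 to 7: 0 without edited replicates 1, 2, 4, 5, 8, 10, 11, 12, 13 or 14, BE replicates 1, 3, 5 or 8 or sgRNA replicates 3 or 7, and 2 to 7 without BE replicates 2, 4 or 7, sgRNA replicates 4, 5, 6 or 8 or edited replicate 7. At the limits of the study's methods the count was 0 to 1 over these omissions, and between editor and guide 0 to 1, with 1 also for each fit with the editor name as a term. The cause was not tested for any of these.

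With a replicate block the count was 0, and the medians of the early 2C and minor ZGA lists turned to -0.27 each. Embryos of different groups share only a number: the correlation of their deviations had a median of 0.03 over 24 pairs (-0.53 to 0.40) and was over 0.1 in 7.

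The number of genes whose editing difference changed between stages, 5 as reported, was 2 with a pseudocount of 0.1 and with a mean FPKM of at least 5, 1 with median-ratio scaling, 3 without the trend, 15 without the 3 libraries with a 4-cell column name and 13 with the editor name as a term. The median of the 4C or 8C list was -1.21 with a pseudocount of 0.1 and -0.94 with a mean FPKM of at least 5, and that of the ICM list -0.84 with that pseudocount. Within BE4 libraries the early 2C list was at -0.95, the minor ZGA list at -1.05 and the list higher in KD pools at -0.73.

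Some named genes that had not passed the threshold turned their sign, listed here by setting with their log2 differences. With a pseudocount of 0.1 they were Tead4 0.044, Suz12 0.00027 and Gadd45b 0.044. With median-ratio scaling they were Klf5 -0.15, Apex1 -0.065, Pard3 -0.0058, Epcam -0.034 and Yap1 -0.023. With the same FPKM sum they were Klf5 -0.10 and Apex1 -0.022. With quantile normalization they were Klf5 -0.13, Apex1 -0.037, Pard3 -0.063, Epcam -0.047 and Yap1 -0.034. With array weights they were Tead4 0.00039, Tfap2c 0.030, Suz12 0.10, Dppa5a 0.0024 and Hist1h2bj 0.013. With the replicate block they were Satb1 0.022, Tead4 0.075, Klf5 -0.10, Tfap2c 0.00058, Apex1 -0.051, Pcna -0.014, Suz12 0.011, Epcam -0.38, Odf2 -0.029, Gm5662 -0.79 and Becn2 -0.054. With BE controls alone they were Nr2c2 -0.10, Tead4 0.087, Klf5 -0.094, Apex1 -0.49, Suz12 0.017, Omt2b -0.024, Eif4a3 -0.14, Obox3 -0.22, Epcam -0.53, Gm5662 -0.70, Hist1h2bj 0.064 and Becn2 -0.17. With sgRNA controls alone they were Id3 0.18, Fgfr2 0.019, Tfap2c 0.21, Gadd45b 0.58, Dppa5a 0.17, Irf1 0.28 and Gpr50 0.93. After removal of sgRNA replicate 8 they were Satb1 0.031, Tead4 0.21, Suz12 0.080, Pard3 -0.060 and Dppa5a 0.045. After removal of the lowest FPKM sum they were Klf5 -0.046 and Apex1 -0.054. With the editor name as a term they were Rangap1 0.11, Tead4 0.30, Tfap2c 0.0019, Suz12 0.12 and Dppa5a 0.29. Within eBE libraries they were Nr1h3 -0.0021, Id3 0.24, Fgfr2 0.38, Irf1 0.064, Yap1 -0.0019, Hist1h2bj 0.078 and Gpr50 0.094. Within BE4 libraries they were Rangap1 0.28, Tead4 0.75, Pcna -0.10, Suz12 0.21, Pard3 -0.027, Omt2b -0.24, Nr6a1 -0.010, Obox3 -0.47, Epcam -0.44, Dppa5a 0.28, Odf2 -0.24, AF067063 -0.084 and Gm5662 -1.80. With the editor name as a term with 3 sgRNA libraries placed with BE4 they were Satb1 0.018, Tead4 0.24, Tfap2c 0.020, Suz12 0.080, Pard3 -0.034 and Dppa5a 0.14. Within eBE libraries so placed they were Fgfr2 0.34, Apex1 -0.33, Suz12 0.050, Omt2b -0.015 and Hist1h2bj 0.053. Within BE4 libraries so placed they were Satb1 0.11, Tead4 0.66, Tfap2c 0.56, Suz12 0.080, Pard3 -0.12, Tnfaip6 0.090, Obox3 -0.19, Dppa5a 0.61, Odf2 -0.092 and Gm5662 -1.14. With the editor name as a term with the same FPKM sum they were Tead4 0.16, Pard3 -0.20, Omt2b -0.095, Nr6a1 -0.19, Dppa5a 0.053 and Yap1 -0.032. Over the single omissions their ranges were Apex1 -0.054 to 0.27, Dppa5a -0.14 to 0.14, Gadd45b -0.51 to 0.032, Gpr50 -0.31 to 0.038, Hba-a2 -0.89 to 0.024, Id3 -0.52 to 0.046, Irf1 -0.43 to 0.033, Klf5 -0.062 to 0.20, Pard3 -0.060 to 0.29, Rangap1 -0.25 to 0.15, Satb1 -0.13 to 0.051, Suz12 -0.087 to 0.080, Tead4 -0.13 to 0.21 and Tfap2c -0.27 to 0.0011. Cited1 kept its sign under every alternative run.

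FPKM hold no depth, so no counting interval or lower limit of detection can be given, and a value of 0 may be a failed estimate. With 14 and 16 single embryos and a median within-group SD of 0.83 on the log2 scale, differences under about the median interval of 0.61 were mostly not detectable. That interval is not adjusted for the number of genes. Much larger differences, such as -2.26 for Nupr1 and -2.60 for Esx1, did not pass the adjusted threshold over the 30 embryos. The edited fraction of each embryo was not analysed here.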
